A study of Rattus norvegicus with 32 samples.

Results

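The comparison described here is methamphetamine (METH) against saline (Sal) in the subventricular zone (SVZ), in 8 of the 32 RNA-seq samples of the series: the 4 samples titled SVZ METH and the 4 titled SVZ Sal, chosen by title. All came from adult male Sprague-Dawley rats. Each rat had 4 intraperitoneal injections at intervals of 2 h, of METH at 10 mg/kg or of saline at 1 mL/kg, and a 1 mm punch through 2 mm slices of its brain was made 24 h after the last of them. By the methods, RNA-seq used one hemisphere of a brain and the 4 regions were dissected from the same brains, so samples of different regions can share animals. No label says which samples do. The other 24 samples come from the nucleus accumbens (NAc), the dentate gyrus (DG) and Ammon's horn (CA) under the same 2 treatments, and are used only to set the SVZ values beside them. Genes on the 20 autosomes are described, and 14959 of them passed the filter on low counts. Levels are given in CPM, the count relative to the normalized size of its library, and a log2 fold change is METH over Sal.

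The SVZ lines the lateral ventricles and keeps neural stem cells in the adult brain, which divide into transit-amplifying cells and then into neuroblasts that migrate to the olfactory bulb. Ciliated ependymal cells separate it from the ventricle, where the choroid plexus makes cerebrospinal fluid, and medium spiny neurons of the striatum lie on its outer side. METH releases dopamine and other monoamines from their terminals, and in repeated high doses it injures dopamine terminals and raises body temperature.

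The total count per sample was 17269245 to 21085891 in SVZ Sal and 17379234 to 21869773 in SVZ METH, so that 1 read is worth 0.0474 to 0.0592 CPM. The libraries of SVZ Sal 1, METH 2 and METH 4 stood apart from the other 5. Pearson's r of log2(CPM + 1) across genes was 0.986 to 0.992 within these 3, 0.961 to 0.985 within the other 5 and 0.918 to 0.956 between the sets, and the first principal component, with 64.4% of the variance, put the 3 at 44.1 to 61.2 and the others at -44.9 to -13.1. The 4 METH libraries carry only 2 library numbers in the headers of the count files (1669 for METH 1 and 2, 1670 for METH 3 and 4), whereas the 4 Sal libraries carry 4 numbers. The word EXTRA is in the names of Sal 1, Sal 2, METH 2 and METH 4. The paper states that the RNA-seq samples were sequenced in 2 batches, and no sample title says which batch a sample belongs to. No source used here says whether the libraries of 1 number share an animal, so the p-values measure the spread between these samples, which may be technical.

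Neural stem cell genes summed to at least 1013 CPM in every sample (astrocytes express part of them too), but marker genes of neighbouring tissue differed widely between samples of 1 group. Foxj1, Dlx6 and Sox4, which define ependymal cells and the neuroblast lineage, were not analysed here. Summed over the 10 genes of thalamic neurons, the level was 3128, 146, 212 and 373 CPM in Sal 1 to 4 and 228, 2834, 828 and 1877 CPM in METH 1 to 4. Sal 1, METH 2 and METH 4 were thus the 3 highest, with METH 3 between them and the rest. The 25 genes of striatal medium spiny neurons ran the other way, at 1374, 8196, 13361 and 9352 CPM in Sal 1 to 4 and 4436, 1144, 6739 and 2309 CPM in METH 1 to 4, with Sal 1 and METH 2 lowest. Genes of ependymal cells and motile cilia (22 tested) summed to 166, 298, 437 and 1350.4 CPM in Sal 1 to 4 and 724, 98.1, 779 and 82.5 CPM in METH 1 to 4, lowest in METH 4, METH 2 and Sal 1. Choroid plexus genes (13 autosomal genes tested) summed to 871, 112, 311 and 194 CPM in Sal 1 to 4 and 169, 576, 10992 and 439 CPM in METH 1 to 4, far higher in METH 3 than in any other sample. Fewer cells of a type and less RNA per cell cannot be told apart in bulk samples.

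**Figure D1:**
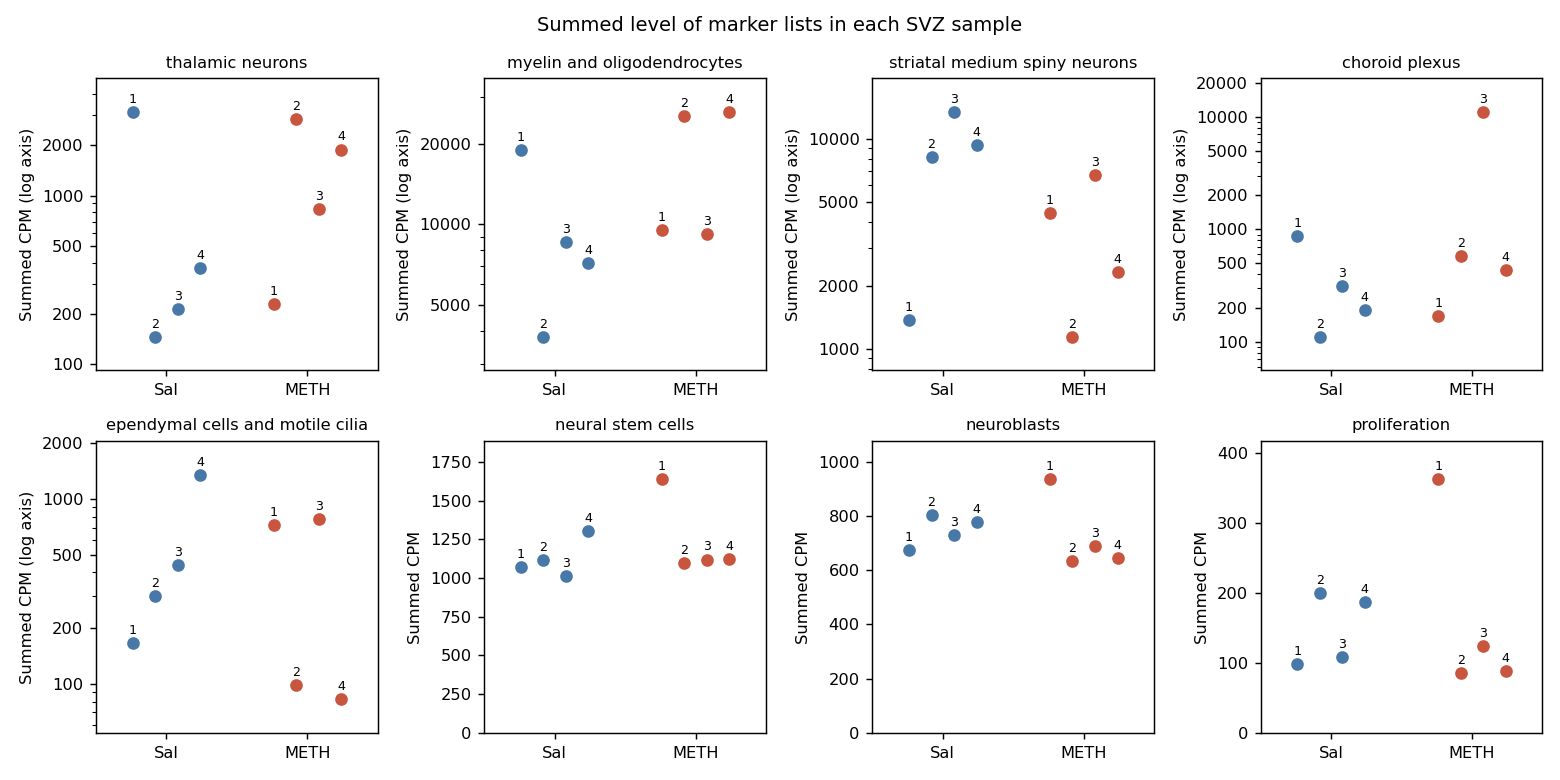
Summed CPM of 8 marker lists in each SVZ sample (vertical axis in CPM, log scale where labelled; points are samples, numbered by replicate; blue Sal, red METH). Sal 1, METH 2 and METH 4 lie together in the thalamic, striatal and ependymal panels, METH 3 is highest for choroid plexus, and METH 1 is highest for neural stem cells, neuroblasts and proliferation.

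Genes of the neurogenic lineage come first. In edgeR's quasi-likelihood test, 0 of 13 neural stem cell genes, 0 of 12 autosomal neuroblast genes and 0 of 20 proliferation genes reached an unadjusted p under 0.05, beside 1.17% of all genes tested that reached it with METH higher and 1.42% with METH lower, so a count of 0 in 45 is near the share of all genes. None of the 45 had groups without overlap. Without 1 library at most 2 members of a list reached it (2 proliferation genes, lower, without METH 1, where 1.95% of all genes were). The neural stem cell genes summed to 1072, 1115, 1013 and 1306 CPM in Sal 1 to 4 and 1638, 1098, 1119.8 and 1123 CPM in METH 1 to 4, with METH 1 above all others. Proliferation genes, which include Mki67, Top2a and the Mcm helicase subunits, summed to 99.1, 199.8, 109 and 188 CPM in Sal 1 to 4 and 363, 85.4, 123 and 88.3 CPM in METH 1 to 4. Without METH 1 the median log2 fold change of the proliferation list went from 0.15 to -0.93 and that of the neuroblast list from -0.056 to -0.77, and that of the neural stem cell list from 0.18 to -0.23. Without Sal 1 the proliferation median was -0.015 and the neuroblast median -0.35, so the sign of these medians depends on single libraries. Among the ligands and targets of the niche, 30 genes were tested and 2 reached an unadjusted p under 0.05, both lower in METH (1.42% of all genes). Without Sal 1 there were 4 lower and 4 higher (7.14% and 9.46% of all genes), without METH 3 there were 3 lower and 1 higher (2.30% each), and without any other library 1 was lower, with 1 higher as well without METH 4 (0.876%). Nog, which encodes the BMP antagonist noggin, was at 9.39, 11.3, 8.65 and 8.94 CPM in Sal 1 to 4, and 6.78, 6.71, 7.96 and 6.87 CPM in METH 1 to 4. The groups did not overlap, and the log2 fold change of Nog was -0.44 (SE 0.14, unadjusted p = 0.015). Hey1, a target of Notch signalling, had a log2 fold change of -0.54 (SE 0.22, unadjusted p = 0.04), with groups of 15.1 to 27.8 CPM in Sal and 12.0 to 19.3 CPM in METH that overlapped.

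No gene was called: of 15579 tested on all chromosomes, 0 (0%) had an FDR (edgeR's p after Benjamini-Hochberg adjustment) under 0.01 with a fold change above 1.5, and the lowest autosomal FDR was 0.979. The paper does report genes called in the SVZ. Its edgeR test followed RUVr, a removal of unwanted variation that the main fit here leaves out, and used a higher fold change threshold. At an unadjusted p under 0.05, 175 autosomal genes were higher in METH (1.17% of 14959) and 212 were lower (1.42%). DESeq2 put 164 higher and 356 lower at that threshold and called 2 genes at an FDR under 0.01, Cmc1 and the Y-linked Usp9y. The groups were separated, that is, all 4 METH values lay above or below all 4 Sal values, in 137 genes that were higher (0.916%) and 101 that were lower (0.675%). With TMM in place of upper-quartile scaling the separated genes were 105 and 133 and those at an unadjusted p under 0.05 were 145 and 251, so the split between higher and lower genes depends on the scaling. Counting separated groups by DESeq2's size factors gave 99 and 142. Of the 238 separated genes, 142 also had an unadjusted p under 0.05, with 78 higher and 64 lower in METH. The common biological coefficient of variation was 0.373.

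The counts depended on single libraries, above all on Sal 1. With Sal 1 left out, the threshold was met by 1436 genes with METH higher (9.46%) and 1083 with METH lower (7.14%), and the lowest FDR was 0.27, still with 0 genes called. These 2519 genes include 339 of the 387 found with all 8 samples. Leaving out any other single library gave 71 to 348 higher and 78 to 348 lower genes. As shares of all genes these were 0.653% higher and 0.765% lower without Sal 2, 0.467% and 0.513% without Sal 3, 1.29% and 0.906% without Sal 4, 1.70% and 1.95% without METH 1, 0.700% and 0.752% without METH 2, 2.30% and 2.30% without METH 3, and 0.876% and 0.514% without METH 4. Without Sal 1, METH 2 and METH 4, which leaves 3 Sal and 2 METH samples, 468 genes were higher (3.04%) and 581 lower (3.77%), again with 0 called. Of the 142 separated genes with an unadjusted p under 0.05, 62 stayed under it with the same sign in all 8 fits that leave out 1 library (34 higher, 28 lower).

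**Figure D2:**
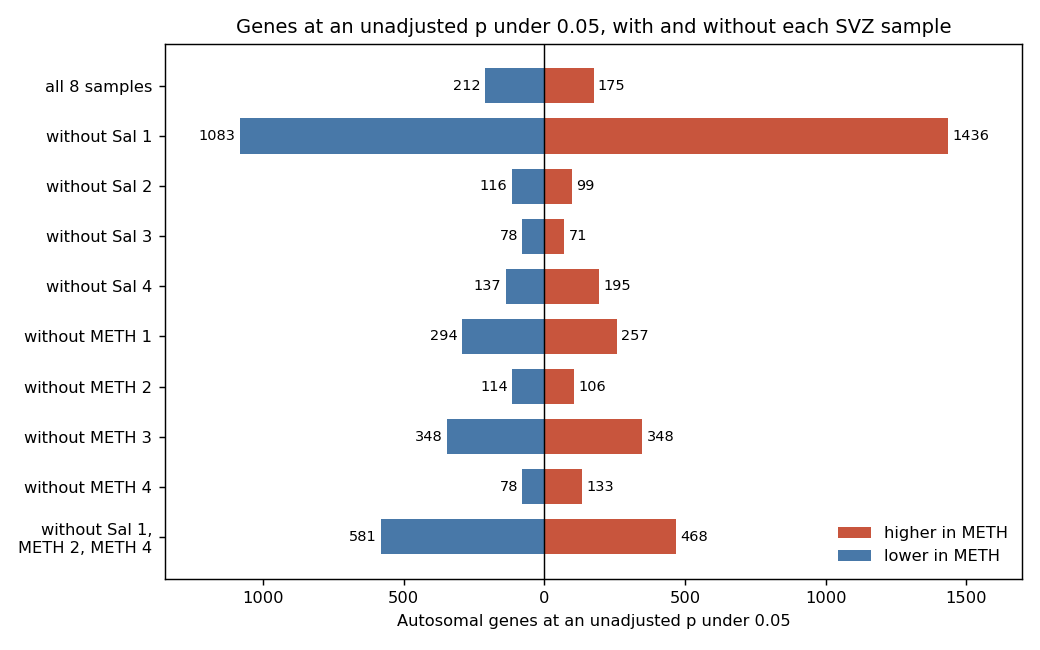
Number of autosomal genes at an unadjusted p under 0.05 in edgeR's test (horizontal axis; red higher in METH, blue lower in METH) with all 8 SVZ samples, without each sample in turn, and without the 3 libraries that stand apart. All 8 samples give 175 and 212 genes, and the fit without Sal 1 gives 1436 and 1083.

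Cholesterol synthesis had, with all 8 samples, more members at an unadjusted p under 0.05 and higher in METH than any other of the 28 lists. Of its 18 autosomal genes, 6 were higher in METH at an unadjusted p under 0.05 (1.17% of all genes) and 0 lower, 3 had separated groups with METH higher (0.916% of all genes), and the median log2 fold change was 0.31 beside 0.016 for all genes. None passed the FDR threshold. The 28 lists were chosen with earlier results of these data known, so the rank and these counts are a description. Enzymes of the pathway turn acetyl-CoA by way of mevalonate, isoprenoids and squalene into cholesterol, which oligodendrocytes use in bulk for myelin. The list also holds the regulators Insig1 and Srebf2. Expression of the pathway is governed by the sterol-sensing factor SREBP2 (Srebf2) together with NF-Y, which binds CCAAT boxes.

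Promoter windows of RefSeq (build GRCr8, 250 bases before to 50 after the annotated start, written 5′ to 3′ in the direction of the gene) were matched by symbol for 14 of the 20 genes of the list, the X-linked Ebp and Nsdhl included. The motifs were chosen after the list's values were seen and were searched on both strands. The letters CCAAT occurred on either strand in 12 of the 14, beside 37.5% of all 33465 promoters. Idi1 and Msmo1 are shown because they are the 2 genes with an unadjusted p under 0.05 and a match, and the capitals mark CCAAT or its reverse complement ATTGG. The Idi1 window lies at chr17:66547475-66547774 on the minus strand and the Msmo1 window at chr16:29746863-29747162 on the plus strand.
Idi1: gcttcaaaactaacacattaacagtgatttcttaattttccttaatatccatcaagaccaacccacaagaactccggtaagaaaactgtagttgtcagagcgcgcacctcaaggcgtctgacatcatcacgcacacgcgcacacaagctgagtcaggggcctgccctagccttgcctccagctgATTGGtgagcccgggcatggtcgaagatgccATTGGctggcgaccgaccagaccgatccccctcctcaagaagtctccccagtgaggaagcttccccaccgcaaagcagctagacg
Msmo1: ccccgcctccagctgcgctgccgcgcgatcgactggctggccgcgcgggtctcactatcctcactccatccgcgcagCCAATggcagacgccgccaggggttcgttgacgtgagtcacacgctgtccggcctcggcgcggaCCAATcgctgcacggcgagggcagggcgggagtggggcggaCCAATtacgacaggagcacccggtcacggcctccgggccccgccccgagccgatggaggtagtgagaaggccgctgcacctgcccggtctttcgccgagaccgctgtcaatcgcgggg
The 2 matches of Idi1 begin 66 and 35 bases before the start, and the 3 of Msmo1 begin 173, 109 and 68 bases before it. The sterol regulatory letters TCACNCCAC were in 0 of the 14 windows (1.12% of all promoters), and TCACGTGA also in 0 (0.777%). A match is a description of the window, and no binding was measured here.

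Idi1, the isomerase that makes the reactive isoprenoid unit (chr17:57976268-57984036 in rn6), had the lowest p of the list. Its level was 19.9, 17.7, 15.02 and 17.7 CPM in Sal 1 to 4, and 26.5, 26.8, 24.1 and 30.5 CPM in METH 1 to 4. Every METH sample lay above every Sal sample, with 17.6 ± 1.99 CPM (SD, n = 4) in Sal and 27.0 ± 2.63 CPM (SD, n = 4) in METH. The log2 fold change was 0.62 (SE 0.12, unadjusted p = 0.000867), between 0.54 and 0.68 when any 1 library was left out, and 0.59 (unadjusted p = 0.00815) without the 3 libraries that stand apart. The span of Idi1 overlaps that of Wdr37 on the opposite strand, and counting did not use the strand.

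Further down the pathway, Fdft1, which makes squalene, was at 61.2, 57.2, 55.0 and 52.4 CPM in Sal 1 to 4, and 77.0, 83.0, 60.5 and 84.5 CPM in METH 1 to 4. The groups touch, since METH 3 lay below Sal 1, and the log2 fold change was 0.43 (SE 0.12, unadjusted p = 0.00801). Sqle, the squalene epoxidase and a rate-limiting step, was at 59.1, 56.6, 58.0 and 59.6 CPM in Sal 1 to 4, and 74.2, 63.4, 65.9 and 77.6 CPM in METH 1 to 4, a small but separated difference with a log2 fold change of 0.27 (SE 0.093, unadjusted p = 0.0201). Msmo1, an oxidase of methylsterols, had a log2 fold change of 0.41 (SE 0.15, unadjusted p = 0.0229). For Dhcr7, a reductase of the final steps named here after its value was seen, it was 0.33 (SE 0.13, unadjusted p = 0.0302). Of the 18 genes 17 had a positive log2 fold change, Srebf2 alone being negative.

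Without the 3 libraries that stand apart the list had 2 members at an unadjusted p under 0.05 (3.04% of all genes) and a median of 0.23. That lead does not hold throughout: without the 3 libraries choroid plexus had 11 such members (3.04% of all genes), without Sal 1 myelin had 24 (9.46%), and without METH 4 choroid plexus had 3 (0.876%), against 2 cholesterol genes. Without METH 2 the unfolded protein response list had as many members as the cholesterol list, 3 (0.700%). Within the libraries named EXTRA 2 of the 18 cholesterol genes were higher (0.593% of all genes), as many as myelin genes, and within the others 1 was (2.23%), against 6 choroid plexus genes. Without 1 library the cholesterol list had 12 such members without Sal 1 (9.46% of all genes), 9 without METH 3 (2.30%), 6 without METH 1 (1.70%), 4 without Sal 3 (0.467%) or Sal 4 (1.29%), 3 without Sal 2 (0.653%) or METH 2 (0.700%) and 2 without METH 4 (0.876%). None was lower, and the median stayed between 0.23 and 0.38. Myelin genes were higher in part of the same samples: all 25 autosomal members tested had a positive log2 fold change with a median of 0.78, but with all 8 samples only Aspa reached an unadjusted p under 0.05 (0.047 in edgeR's test) and no member had separated groups. Without Sal 1, 24 of the 25 reached it (9.46% of all genes) and the median was 1.27. Without METH 3, 3 did (2.30%), and without Sal 2, Sal 3, Sal 4, METH 2 or METH 4, 0 did. The 25 genes had a median of 0.54 without METH 2 and 0.47 without the 3 libraries that stand apart. Within the libraries named EXTRA they had a median of 1.03, and within the others one of 0.21. Their summed level was 18996, 3812, 8600.3 and 7177 CPM in Sal 1 to 4 and 9554, 25511, 9193 and 26296 CPM in METH 1 to 4. METH 2 and METH 4 were highest, followed by Sal 1, and Sal 2 was lowest. The part of myelin in the cholesterol values was not tested.

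Immediate early genes, which neurons switch on within minutes of activity, had, with all 8 samples, more members at an unadjusted p under 0.05 and lower in METH than any other list. Of 20 genes, 5 were lower at an unadjusted p under 0.05 (1.42% of all genes were) and 0 higher, and the median log2 fold change was -0.66. This rank too is a description, since the lists were chosen with earlier results of these data known. Npas4, a transcription factor induced by calcium entry, was at 2.41, 8.64, 43.1 and 52.95 CPM in Sal 1 to 4, and 5.03, 0.905, 1.56 and 1.87 CPM in METH 1 to 4. Its Sal values span a wide range, Sal 1 lay below METH 1, and the log2 fold change was -3.52 (SE 1.00, unadjusted p = 0.00751). Fos, a subunit of the factor AP-1, was at 13.7, 6.31, 17.7 and 27.0 CPM in Sal 1 to 4, and 4.92, 6.01, 7.72 and 6.06 CPM in METH 1 to 4, with METH 3 above Sal 2 and a log2 fold change of -1.39 (SE 0.40, unadjusted p = 0.00812). Junb, its partner, had a log2 fold change of -1.32 (SE 0.46, unadjusted p = 0.0216), and Nr4a1, an orphan nuclear receptor, one of -1.23 (SE 0.47, unadjusted p = 0.0302). Nr4a1 and the Egr factors are named here after their values were seen. The Egr factors pointed the same way, with log2 fold changes of -1.04 (Egr1), -1.49 (Egr2), -1.26 (Egr3) and -1.29 (Egr4), and none of these 4 reached an unadjusted p under 0.05.

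Arc (chr7:115907097-115910541, rn6 as for all gene positions), the postsynaptic protein that regulates AMPA receptor uptake, was the one gene of the list with separated groups. It was at 49.4, 53.9, 127 and 111 CPM in Sal 1 to 4, and 37.9, 31.4, 43.0 and 42.1 CPM in METH 1 to 4. Sal 1 and Sal 2 lay just above the METH samples, while Sal 3 and Sal 4 were far above all the others. The mean was 85.3 ± 39.4 CPM (SD, n = 4) in Sal and 38.6 ± 5.30 CPM (SD, n = 4) in METH, with a log2 fold change of -1.14 (SE 0.32, unadjusted p = 0.00732). It stayed between -1.34 and -0.89 in the fits without 1 library, but was -0.49 within the 4 libraries named EXTRA and -1.56 within the other 4. Of the whole list, 0 of 20 were lower within the EXTRA libraries (1.21% of all genes), with a median of -0.88, and 10 were lower and 2 higher within the others (2.90% and 2.23%), with a median of -0.63. Without the 3 libraries that stand apart 8 of the 20 genes were lower (3.77% of all genes) and 1 higher, with a median of -0.46. In the fits without 1 library 7 were lower without Sal 1 (7.14% of all genes) or METH 1 (1.95%), 5 without Sal 2 (0.765%) or METH 3 (2.30%), and 3 without Sal 3 (0.513%), Sal 4 (0.906%), METH 2 (0.752%) or METH 4 (0.514%). The median stayed between -1.15 (without METH 1) and -0.48. Striatal medium spiny neuron genes pointed the same way: 24 of 25 had a negative log2 fold change, with a median of -1.15, although Gnal alone reached an unadjusted p under 0.05 (0.0251 in edgeR's test). In the fit without the 3 libraries 18 of the 25 were lower, more than the 8 early genes (3.77% of all genes), and without Sal 1 13 were, against 7 early genes (7.14%). Without METH 3 6 striatal genes were lower, against 5 early genes (2.30%), and without METH 2 5 endothelial genes were, against 3 (0.752%). Within the libraries not named EXTRA 17 striatal genes were lower, against 10 early genes, and within the EXTRA libraries 13 ependymal genes were, against 0. The part of striatal tissue in the values of the early genes was not tested.

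Many early genes are driven through cAMP response elements, whose core is TGACG, and through the CArG box of the serum response factor. Among the 14 promoters matched of the list's 20 genes, 9 held TGACG on either strand beside 21.2% of all promoters. The cholesterol list had 9 of 14 as well, so the letters do not mark the early genes against it. The full palindrome TGACGTCA, which contains TGACG, was in 3 of 14 (1.83% of all promoters), the CArG box in 2 (1.64%) and the Egr site GCGTGGGCG in 0 (0.544%). Junb (chr19:40080876-40081175, plus strand, GRCr8) and Nr4a1 (chr7:134259888-134260187, plus strand) are shown as the 2 members with an unadjusted p under 0.05 and a match, with TGACG or its reverse complement CGTCA in capitals.
Junb: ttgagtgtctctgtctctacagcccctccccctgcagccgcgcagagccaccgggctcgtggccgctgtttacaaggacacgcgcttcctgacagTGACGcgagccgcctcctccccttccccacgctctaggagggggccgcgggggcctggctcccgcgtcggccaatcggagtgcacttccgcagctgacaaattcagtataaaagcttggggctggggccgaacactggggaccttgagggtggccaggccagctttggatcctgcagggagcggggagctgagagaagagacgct
Nr4a1: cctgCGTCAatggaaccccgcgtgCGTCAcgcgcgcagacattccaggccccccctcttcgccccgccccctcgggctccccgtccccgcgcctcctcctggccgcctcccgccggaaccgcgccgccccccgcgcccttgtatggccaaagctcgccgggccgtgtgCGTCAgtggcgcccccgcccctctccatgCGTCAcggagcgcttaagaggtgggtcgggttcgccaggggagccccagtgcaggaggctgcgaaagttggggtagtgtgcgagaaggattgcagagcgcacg
Junb has 1 match, 155 bases before the start. Nr4a1 has 4, of which the nearest 2 begin 82 and 53 bases before it.

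**Figure D3:**
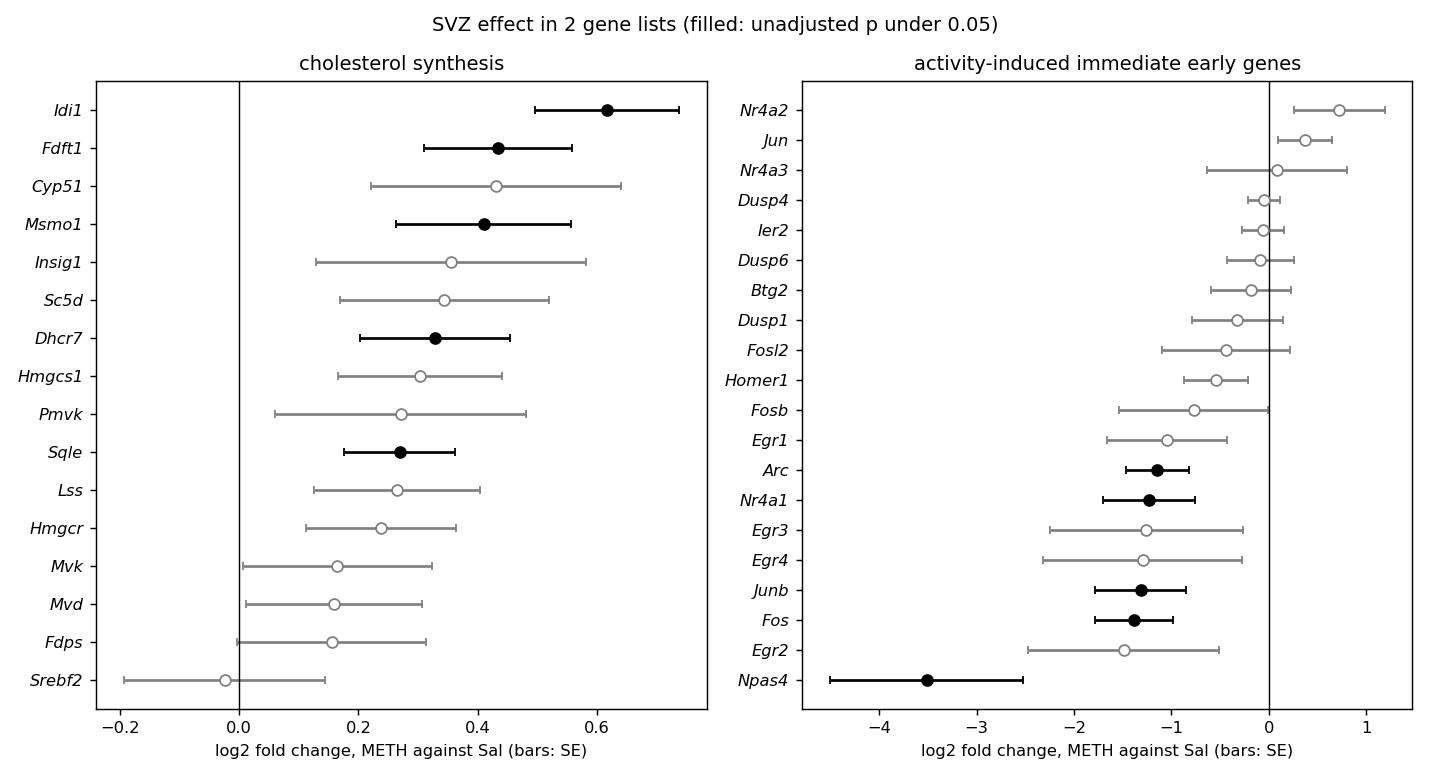
Log2 fold change of METH against Sal in the SVZ for 16 of the 18 autosomal cholesterol synthesis genes (left) and the 20 immediate early genes (right). Bars are the SE of edgeR's fit, and filled points have an unadjusted p under 0.05: 5 of 16 on the left, all higher, and 5 of 20 on the right, all lower.

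Single genes were named by a rule: a symbol, a mean of at least 1 CPM, separated groups and an unadjusted p under 0.05, which 58 higher and 55 lower genes met, and of these the 12 with the largest log2 fold change in each direction. Separation, p and fold change chose these genes, so their values are a description. Of the 24, 18 had an unadjusted p under 0.05 in all 8 fits without 1 library, and 15 had one without the 3 libraries that stand apart. The largest difference was that of Cmc1 (chr8:126437345-126495347), a mitochondrial protein needed to assemble cytochrome c oxidase. It was at 2.17, 1.46, 1.58 and 1.66 CPM in Sal 1 to 4, and 3.39, 4.52, 5.97 and 6.25 CPM in METH 1 to 4. METH 1 was the lowest METH sample and still well above Sal 1, the highest Sal sample, on raw counts of 28 to 130 reads. The mean was 1.72 ± 0.312 CPM (SD, n = 4) against 5.03 ± 1.33 CPM (SD, n = 4), and the log2 fold change of 1.55 (SE 0.26, unadjusted p = 0.000285) lay between 1.43 and 1.70 without any 1 library. DESeq2 gave Cmc1 an adjusted p of 0.00391, while edgeR's FDR was 0.979.

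Zbtb16 (chr8:52985313-53146953), a zinc finger transcription factor that glucocorticoids induce, was at 15.8, 16.7, 20.5 and 15.6 CPM in Sal 1 to 4, and 41.4, 21.9, 33.9 and 61.2 CPM in METH 1 to 4. METH 2 was close to Sal 3, and METH 4 was highest. Its log2 fold change was 1.21 (SE 0.29, unadjusted p = 0.00291) and 1.10 (unadjusted p = 0.000733) without the 3 libraries that stand apart. Of 14 autosomal glucocorticoid-induced genes Zbtb16 alone was higher and 2 were lower at an unadjusted p under 0.05 (1.17% and 1.42% of all genes). Without Sal 1, 2 were higher and 3 lower (9.46% and 7.14%), and without Sal 3, Sal 4 or any METH sample 1 was lower (0.513% to 2.30%). The median was -0.076, but -0.18 without METH 4 and 0.0078 without Sal 3, so its sign depends on single libraries. The 2 lower genes were Per1, a core repressor of the circadian clock, with a log2 fold change of -0.48 (SE 0.14, unadjusted p = 0.00943), and Klf9, with -0.30 (SE 0.13, unadjusted p = 0.0454). Per1 was at 70.8, 96.7, 97.0 and 95.01 CPM in Sal 1 to 4, and 75.7, 55.0, 64.2 and 62.3 CPM in METH 1 to 4, and Sal 1 alone lay within the METH range.

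Th (chr1:216073031-216080287), tyrosine hydroxylase, the rate-limiting enzyme of catecholamine synthesis, was at 1.01, 1.12, 0.692 and 0.711 CPM in Sal 1 to 4, and 1.20, 1.92, 1.70 and 4.04 CPM in METH 1 to 4. METH 4 stood well above the others, and the counts were low, 12 to 84 reads. The log2 fold change was 1.32 (SE 0.41, unadjusted p = 0.0122), and 0.78 (unadjusted p = 0.11) without the 3 libraries that stand apart. Without METH 4 alone it was 0.86. The annotated span of Th overlaps that of Cttn.

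P3h4 (chr10:88318817-88325326), an endoplasmic reticulum protein of the complex that modifies collagen, was at 11.6, 6.26, 7.76 and 5.39 CPM in Sal 1 to 4, and 13.1, 18.1, 14.1 and 16.8 CPM in METH 1 to 4, with Sal 1 closest to the METH samples. Its log2 fold change was 1.00 (SE 0.25, unadjusted p = 0.00374) and stayed between 0.86 and 1.26 without any 1 library. S100a10, which pairs with annexin at the plasma membrane, was at 6.79, 4.81, 2.22 and 4.38 CPM in Sal 1 to 4, and 7.27, 8.84, 14.2 and 9.80 CPM in METH 1 to 4 and had a log2 fold change of 1.14 (SE 0.35, unadjusted p = 0.0113). Gpnmb, a lysosomal glycoprotein of phagocytes, was at 10.9, 5.78, 7.71 and 7.17 CPM in Sal 1 to 4, and 12.5, 11.5, 24.3 and 11.6 CPM in METH 1 to 4. The value of METH 3, the sample rich in choroid plexus genes, stood above the other METH samples, and the log2 fold change of 0.92 (SE 0.31, unadjusted p = 0.0166) lay between 0.58 and 1.12 without any 1 library, lowest without METH 3.

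Unfolded protein response genes, which the endoplasmic reticulum induces under load, had a positive log2 fold change in all 13 members tested, with a median of 0.25. At an unadjusted p under 0.05, 2 were higher (1.17% of all genes). The count was 9 without Sal 1 (9.46% of all genes), 5 without METH 1 (1.70%), 3 without METH 2 (0.700%), 1 without Sal 2 (0.653%) or Sal 4 (1.29%), and 0 without Sal 3 (0.467%), METH 3 (2.30%) or METH 4 (0.876%). The median was between 0.21 (without METH 3) and 0.42 (without Sal 1). Pdia4, a disulfide isomerase, was at 52.0, 51.5, 48.7 and 55.7 CPM in Sal 1 to 4, and 61.5, 55.9, 71.0 and 69.4 CPM in METH 1 to 4 and was separated, with a log2 fold change of 0.31 (SE 0.10, unadjusted p = 0.0176). Xbp1, the transcription factor of the response, had a log2 fold change of 0.27 (SE 0.11, unadjusted p = 0.0443), with overlapping groups. The 12 on the higher side also include Gstm6, Akr1c13, Mboat1, Pqlc3 and Ubap1l, with log2 fold changes of 0.92 to 1.12 at mean levels of 1.33 to 3.58 CPM. Gstm6 (a glutathione transferase) and Akr1c13 (an aldo-keto reductase) have close paralogs between which reads could be split, so they are uncertain.

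Dlgap3 (chr5:145257714-145304536), a scaffold of the postsynaptic density that is abundant in the striatum, was at 321, 360.3, 582 and 424 CPM in Sal 1 to 4, and 265, 290.0, 295 and 252 CPM in METH 1 to 4. METH 3 and METH 2 were close to Sal 1, and the log2 fold change was -0.61 (SE 0.19, unadjusted p = 0.012).

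Potassium channel genes as a list had members in both directions. Their median log2 fold change was -0.50, and between -0.64 and -0.39 in the fits without 1 library. Of 32 tested, 2 were lower at an unadjusted p under 0.05 (1.42% of all genes), 0 were higher, and 19 had a negative and 13 a positive log2 fold change. Without Sal 1, 12 were lower (7.14% of all genes) and 5 higher (9.46%), without METH 3 5 were lower (2.30%), without METH 1 4 were (1.95%), and without any other library 1 or 2 were (0.513% to 0.906%). Without the 3 libraries that stand apart, 10 were lower (3.77%) and 2 higher (3.04%). The list's member named here, one of these 2, is Kcna4, a subunit of fast A-type channels, at 59.8, 78.8, 111 and 113 CPM in Sal 1 to 4, and 64.0, 51.9, 69.7 and 50.8 CPM in METH 1 to 4. METH 3 and METH 1 lay above Sal 1, and the log2 fold change was -0.62 (SE 0.22, unadjusted p = 0.0231). Rap1gap, which switches off the GTPase Rap1 and is abundant in medium spiny neurons, was at 472, 406, 605 and 476 CPM in Sal 1 to 4, and 275, 396, 367 and 382 CPM in METH 1 to 4, with a log2 fold change of -0.46 (SE 0.17, unadjusted p = 0.0252). Pcdhb19, a clustered protocadherin with many close paralogs, had a log2 fold change of -0.48 (SE 0.15, unadjusted p = 0.0135) and is uncertain for that reason.

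Mppe1 (chr18:62946953-62965538), a phosphoesterase that trims the lipid anchor of surface proteins, was at 21.6, 33.4, 28.8 and 33.6 CPM in Sal 1 to 4, and 19.8, 18.6, 20.2 and 15.4 CPM in METH 1 to 4. Sal 1 was close to the METH samples, and the log2 fold change of -0.67 (SE 0.17, unadjusted p = 0.00359) lay between -0.79 and -0.59 without any 1 library. Nkiras1 (chr15:8179102-8183682), a Ras-like inhibitor of NF-kappaB signalling, was at 93.7, 113, 135 and 105 CPM in Sal 1 to 4, and 64.4, 74.4, 82.6 and 79.9 CPM in METH 1 to 4, with a log2 fold change of -0.57 (SE 0.14, unadjusted p = 0.00322). B3galt4, a galactosyltransferase of ganglioside synthesis, and Cela2a, an elastase, had log2 fold changes of -0.57 and -0.64 at mean levels of 2.96 and 1.97 CPM.

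Edn1, the vasoconstrictor endothelin, was at 1.35, 1.55, 1.68 and 1.48 CPM in Sal 1 to 4, and 1.09, 0.798, 0.805 and 0.577 CPM in METH 1 to 4, which is 12 to 34 reads, and had a log2 fold change of -0.89 (SE 0.26, unadjusted p = 0.0082). Without the 3 libraries that stand apart it was -0.73 (unadjusted p = 0.0912). Acta2, smooth muscle actin, was at 5.73, 3.11, 3.01 and 2.43 CPM in Sal 1 to 4, and 1.75, 2.24, 2.32 and 1.87 CPM in METH 1 to 4. Sal 1 was highest. The log2 fold change of Acta2 was -0.80 (SE 0.30, unadjusted p = 0.0269), but -0.48 without Sal 1, and the unadjusted p in edgeR's test was 0.0628 without Sal 1, 0.0637 without METH 1 and 0.0621 without METH 4. Flt4, a receptor of vascular endothelial growth factors, had a log2 fold change of -0.53 (SE 0.23, unadjusted p = 0.0483), and its span overlaps Trappc2b on the opposite strand. At an unadjusted p under 0.05 there were 0 of 12 genes of the endothelial list and Acta2 alone of 11 of the pericyte and fibroblast list (1.42% of all genes lower). Without METH 2, 5 of the 12 endothelial genes were lower (0.752% of all genes), and without the 3 libraries 4 were (3.77%). Without any other single library it was 0, and Cldn5 was listed at 0 in all 8 samples.

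**Figure D4:**
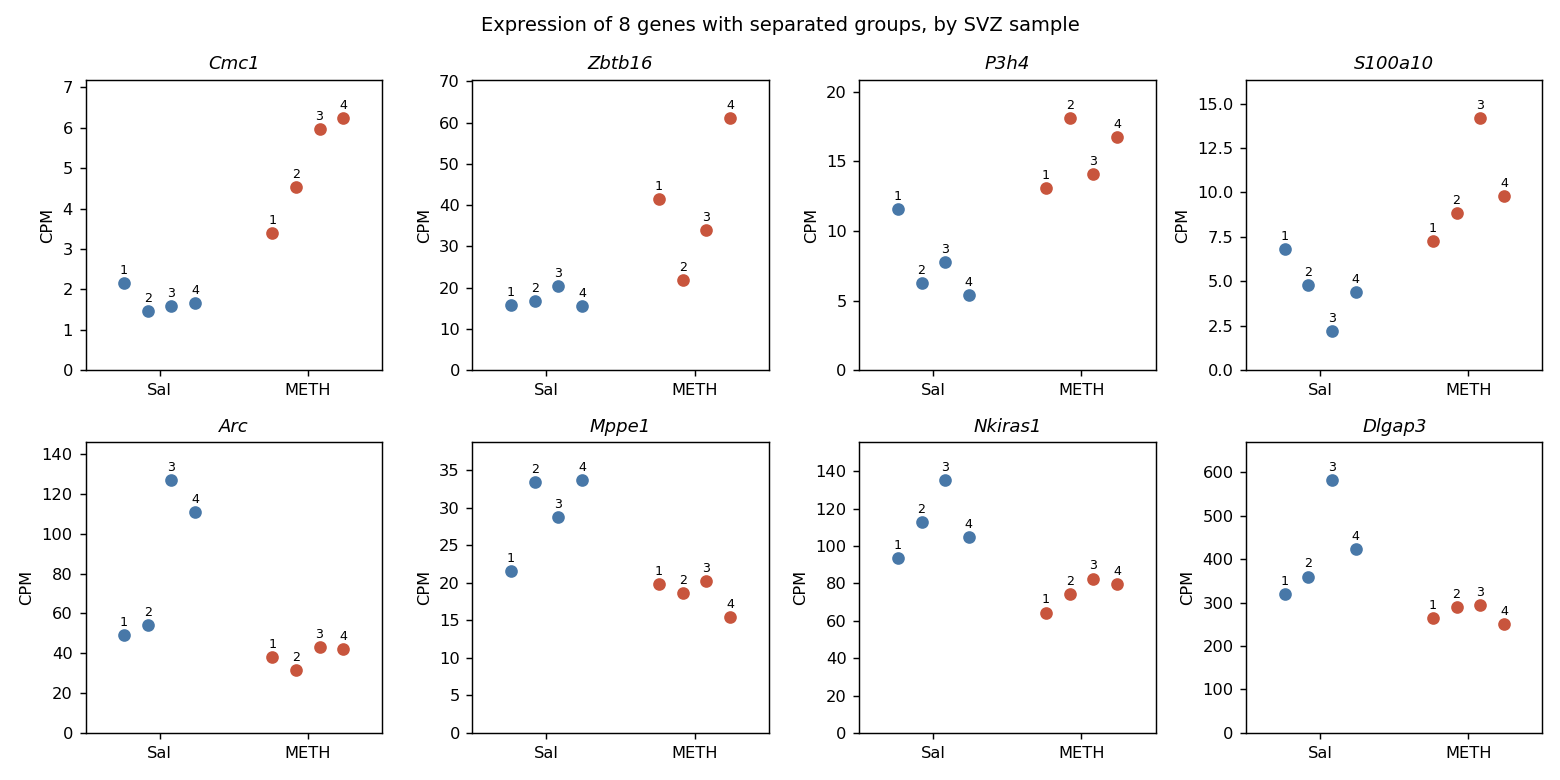
CPM of 8 genes in each SVZ sample (vertical axis in CPM from 0; points are samples, numbered by replicate; blue Sal, red METH). The 4 upper genes (Cmc1, Zbtb16, P3h4 and S100a10) have all METH samples above all Sal samples, and the 4 lower genes (Arc, Mppe1, Nkiras1 and Dlgap3) have them below.

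The remaining 46 higher genes that met the rule had log2 fold changes of 0.23 to 0.88, and the remaining 43 lower genes had -0.45 to -0.20. Some are named here after their values were seen. Grin1 and Grin2b, subunits of the NMDA receptor, had log2 fold changes of -0.39 (SE 0.10, unadjusted p = 0.00558) and -0.34 (SE 0.14, unadjusted p = 0.0391). Grin1 was at 453, 487, 543 and 485 CPM in Sal 1 to 4, and 375, 399, 368 and 363 CPM in METH 1 to 4. Cx3cl1, the neuronal ligand of the microglial receptor Cx3cr1, had one of -0.45 (SE 0.12, unadjusted p = 0.00521). On the higher side, Fkbp10, a chaperone of collagen in the endoplasmic reticulum, was at 8.52, 8.69, 7.71 and 8.23 CPM in Sal 1 to 4, and 12.3, 12.2, 12.6 and 12.9 CPM in METH 1 to 4, with a log2 fold change of 0.59 (SE 0.11, unadjusted p = 0.000518), and Slc29a4, a monoamine transporter of low affinity, had 0.73 (SE 0.18, unadjusted p = 0.00354).

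Gfap, the intermediate filament of astrocytes, was at 683, 257, 470.2 and 416 CPM in Sal 1 to 4, and 535, 722, 1378 and 789 CPM in METH 1 to 4. METH 3 was highest, Sal 1 lay between METH 1 and METH 2, and the log2 fold change was 0.91 (SE 0.37, unadjusted p = 0.0379). Without METH 3 the log2 fold change of Gfap was 0.58 and its unadjusted p in edgeR's test was 0.117. It was the only one of 13 autosomal reactive astrocyte genes at an unadjusted p under 0.05, and the only one of 18 genes picked from those that the study's text names for the METH effect. None of 12 homeostatic astrocyte, 14 microglia, 9 oligodendrocyte precursor, 13 heat shock, 16 antioxidant and 15 p53 target genes reached it, beside 1.17% of all genes higher and 1.42% lower, so lists of this length are not set apart by a count of 0 or 1. With 1 library left out, each list with a count of 0 had at most 3 members higher and 1 lower, with 1 exception. That was 5 oligodendrocyte precursor genes higher without METH 3 (2.30% of all genes). Heat shock, antioxidant and p53 target genes had 3 higher without Sal 1 (9.46%). Microglia and antioxidant genes had 3 higher without METH 1 (1.70%). Of the 18 genes from the study's text, 3 were higher and 3 lower without Sal 1 (9.46% and 7.14%). The study names part of these 18 for regions other than the SVZ, and its test followed RUVr, which this fit did not use. With all 8 samples, Mx1 alone of 18 interferon and antigen presentation genes reached an unadjusted p under 0.05. Its log2 fold change was 0.98 (SE 0.40, unadjusted p = 0.0413) on 8 to 31 reads.

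Whether the SVZ differences are particular to this region was tested in 1 fit of all 32 samples, as the METH effect in the SVZ minus the mean METH effect of the NAc, DG and CA. It called 0 of 16122 genes at an FDR under 0.01, with 174 higher (1.13% of 15462 autosomal genes) and 296 lower (1.91%) at an unadjusted p under 0.05 and a lowest autosomal FDR of 0.974. No gene can thus be called particular to the SVZ. The fit treats the 32 samples as independent, although samples of different regions can share an animal. The 24 genes chosen by the rule were chosen for the SVZ effect that this contrast contains, so their values across regions are a description. For P3h4 the METH effect on the log2 scale was 1.00 in the SVZ, against 0.082 (NAc), -0.30 (DG) and -0.30 (CA). For Cmc1 it was 0.10, 0.13 and -0.02, beside 1.55.

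Cholesterol synthesis had 4 of 18 genes with a higher effect in the SVZ at an unadjusted p under 0.05 in this test (1.13% of all genes) and 0 with a lower one. This list and the early genes were singled out for SVZ values that the contrast contains, so their counts in it are a description. In the NAc on its own, an unadjusted p under 0.05 was found for 0 of the 18 in either direction (2.46% of all genes higher, 0.966% lower), and their median on the log2 scale was -0.0077. The DG had 3 higher and 1 lower (6.36% and 6.43%) and a median of 0.15, and the CA had 0 higher and 1 lower (4.32% and 2.81%) and a median of -0.066. Immediate early genes had 2 of 20 with a lower effect in the SVZ (1.91% of all genes), and their medians were -0.31, -0.34 and 0.35 in the NAc, DG and CA.

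**Figure D5:**
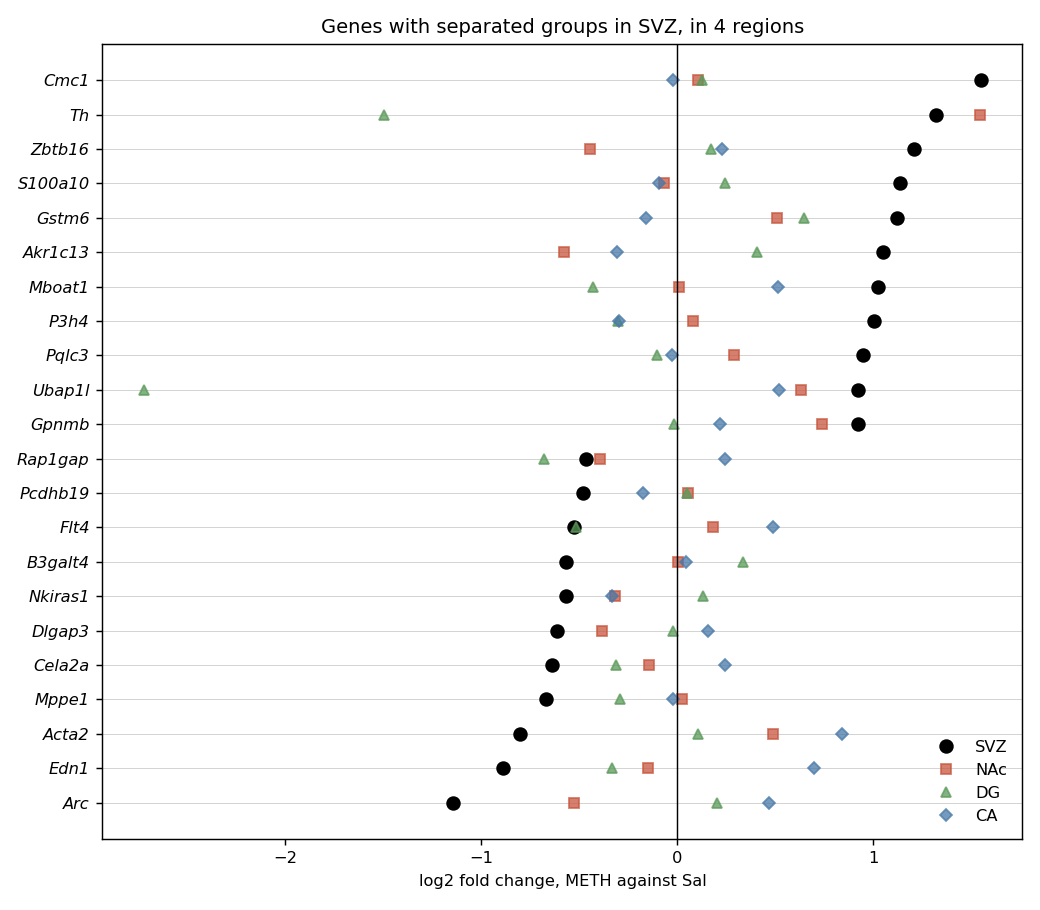
Log2 fold change of METH against Sal (horizontal axis) of 22 of the 24 genes chosen by the rule, in the SVZ (black circles) and in the NAc, DG and CA, each fitted on its own 8 samples. The genes were chosen for their SVZ values, from -1.14 (Arc) to 1.55 (Cmc1), and the other regions lie on both sides of 0 for most of them. Th was not tested in the CA.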

How the data were processed

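RNA was measured in 4 METH and 4 saline samples of each of 4 regions. The authors trimmed the reads (cutadapt 2.7), mapped them to rn6 (STAR 2.5.2b) and deposited raw read counts per gene, made with featureCounts 1.6.3 without use of the strand. The annotation was Ensembl's by the file headers and UCSC's by the methods. The 8 SVZ samples were normalized by the upper quartile, filtered with filterByExpr and compared with edgeR 4.0.16 (quasi-likelihood test, R 4.3.3), with Benjamini-Hochberg adjustment over all genes tested. Alternatives used TMM, DESeq2 1.42.0, other filters, 1 fit of 32 samples, RUVr factors, the deposited count matrix (other counting) and fits without libraries. The edgeR step was tested on simulated counts with a dispersion of 0.05, below that of the SVZ samples, and without their tissue differences. It recovered 163 of 200 changed genes there, and the share it would recover in these samples is not known. The rule for named genes took autosomal genes with a symbol, a mean of at least 1 CPM, separated groups and an unadjusted p under 0.05: the 12 largest in each direction. In each list, the rule named up to 4 members of lowest p, and others are marked where named. The members and the 28 lists were chosen with earlier results of these data known. Some members are counted but not reported here by name. No p was adjusted over a list. More than 1 chromosome is listed for 171 gene names. No column of the matrix was without a sample.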

Additional observations from a re-analysis of the deposited data

Results flagged for a closer look

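In 148 groups of 4 samples, the gap of the highest or lowest sample to its neighbour, as a share of the group's range, passed Dixon's limit for 4 samples in 10, where chance alone gives about 1 in 20. For summed marker levels these were Sal 1 for thalamic neurons (0.924), METH 3 for choroid plexus (0.962) and for 18 genes picked from the study's text (0.852), METH 1 for neural stem cells (0.955) and proliferation (0.862), and METH 2 for endothelial cells (0.871). For single genes they were METH 3 for Gpnmb (0.920) and Nog (0.867), each the highest METH sample, Sal 1 as the lowest Sal sample for Per1 (0.924) and Sal 2 as the lowest for Dhcr7 (0.880).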

How the results depend on the processing

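edgeR called 0 genes in every alternative (with 4 RUVr factors 974 had an FDR under 0.05, and the lowest autosomal FDR was 0.0156), whereas DESeq2 called 2. The genes whose unadjusted p was under 0.05 (METH higher, then METH lower) moved from 175 and 212 to 164 and 356 with DESeq2, 360 and 448 in 1 fit of 32 samples, 1260 and 1067 with 1 RUVr factor, 1597 and 1430 with 2, 2054 and 1638 with 4, 109 and 60 with METH libraries of 1 number summed, and 276 and 452 with EXTRA as a covariate. They were 88 and 180 in the EXTRA libraries, 337 and 439 in the others, and 468 and 581 without the 3 libraries that stand apart. Without 1 library they ranged from 71 to 1436 higher and from 78 to 1083 lower. Separated genes were 517 and 537 with summed libraries, 2280 and 2214 in EXTRA libraries, 2323 and 2235 in the others, 1622 and 1631 without the 3 libraries, 172 to 1061 and 153 to 1214 without 1 library, and 171 lower without a filter on low counts. Fewer samples make separation easier by construction. The causes of the other shifts were not tested. The EXTRA splits, the EXTRA covariate and the set without 3 libraries were chosen after seeing the data. The choroid plexus median was 2.87, -1.43 in EXTRA libraries and -1.30 (without METH 3) to 3.44 without 1 library.

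With the replicate number as a block, 73 higher and 87 lower genes had an unadjusted p under 0.05, and 19 of 45 named genes stayed under it. With libraries of 1 number summed 22 of the 45 did, within the EXTRA libraries 9, within the others 23 and without the 3 libraries 26. In samples with the same replicate number, deviations from the group means had correlations of -0.776 to 0.376. These values do not decide whether replicate numbers pair samples, since marker genes of neighbouring tissue differed widely between samples of 1 group. Of 1033 values of named genes under the alternatives, 0 changed sign. Named genes were chosen for separated groups or a low p in these same data, so a kept sign was likely beforehand. The same count was not made for other genes. Medians of lists did shift, some of them in sign. That of ependymal and motile cilium genes went from -0.41 to 0.55 without Sal 4.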

Other observations

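Usp9y, a Y-linked gene outside the autosomal comparison, had 50, 43, 24 and 21 reads in SVZ Sal 1 to 4 and 1, 0, 0 and 0 in SVZ METH 1 to 4, while the Y-linked Kdm5d (782 to 1106 reads), Eif2s3y (643 to 1092) and Ddx3 (1728 to 2160) were present in all 8. In the other regions Usp9y was above 3 reads in 2 of 4 NAc Sal, 2 of 4 NAc METH, 1 of 4 DG Sal, 4 of 4 DG METH, 2 of 4 CA Sal and 2 of 4 CA METH samples.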
